A study of Mus musculus with 12 samples.

Results

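CG-repeat peaks were the autosomal ZBTB43 affinity-sequencing peaks whose genome sequence held at least 12 bp of uninterrupted alternation of C and G, written (CG)n. They were chosen from sequence alone, without the peak score. The sequence searched was that of the whole peak, so wider peaks offered more of it. Width went with score (Spearman 0.80 over all SssI peaks and 0.77 over all TKO peaks), so the choice was not independent of score. There were 2265 of them among 169284 autosomal peaks of the SssI list (1.34%, 95% interval 1.28 to 1.39%) and 203 among 14554 autosomal peaks of the TKO list (1.39%, interval 1.22 to 1.60%). Intervals on shares are Wilson intervals at 95% and cover counting error only.

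In this assay, fragmented mouse DNA was captured with full-length ZBTB43 fused to maltose-binding protein (MBP), and MBP alone gave the background. The SssI list came from wild-type C57BL/6N adult male lung DNA (2 months) in which the bacterial enzyme M.SssI had methylated CpG dinucleotides. The TKO list came from male ES cells, clone19, labelled 3.5 dpc and lacking all 3 DNA methyltransferase genes (Dnmt1-/-Dnmt3a-/-Dnmt3b-/-), whose DNA is described as fully unmethylated. The DNAs therefore differed in cell type and strain as well as in methylation, and their effects cannot be told apart here. The 2 ZBTB43 and 2 MBP libraries of each DNA had been combined before peaks were called, so each list stands for 1 comparison with no replicate error, and no difference between the lists could be tested across samples. The methods give a minimum depth for the affinity-seq libraries alike, but the lists hold no read counts, so the depth behind each peak was not known here.

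Runs in which purines and pyrimidines alternate can leave the usual right-handed helix for the left-handed form called Z-DNA. The (CG)n repeat is the sequence most prone to this change, the CA repeat, which reads as GT on the other strand, is less prone, and methylation of CpG cytosines favours the left-handed form. ZBTB43 is a zinc-finger protein of the BTB family.

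The following stretches of the GRCm38 (mm10) plus strand, each a CG run with 36 bases on either side, show what lay at these sites. Capitals mark the CG run. The first 4 are from CG-repeat peaks of the TKO list, namely the highest-scoring ones with 3 arrangements of neighbouring CA repeats and the one with the longest CG run.
Mxi1 intron 3, chr19:53348985-53349073, score 1947: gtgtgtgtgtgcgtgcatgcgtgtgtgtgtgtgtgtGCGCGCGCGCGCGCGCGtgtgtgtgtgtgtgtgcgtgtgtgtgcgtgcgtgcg
Brsk1 intron 4, chr7:4696250-4696336, score 2773: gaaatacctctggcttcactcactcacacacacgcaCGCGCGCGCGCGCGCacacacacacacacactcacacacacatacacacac
Intergenic, chr4:102727658-102727741, score 1729: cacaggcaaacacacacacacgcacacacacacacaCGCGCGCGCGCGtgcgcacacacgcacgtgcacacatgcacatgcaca
Intergenic, chr6:94744036-94744135, score 1399: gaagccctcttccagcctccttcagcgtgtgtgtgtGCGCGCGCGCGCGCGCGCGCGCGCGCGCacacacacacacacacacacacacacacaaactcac
The next 2 are the longest CG runs of the SssI list and the last is its highest-scoring CG-repeat peak that overlapped no TKO peak.
Intergenic, chr17:24030797-24030903, score 95: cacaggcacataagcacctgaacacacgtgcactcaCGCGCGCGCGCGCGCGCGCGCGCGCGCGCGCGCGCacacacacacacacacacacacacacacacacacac
Intergenic, chr12:8470018-8470122, score 109: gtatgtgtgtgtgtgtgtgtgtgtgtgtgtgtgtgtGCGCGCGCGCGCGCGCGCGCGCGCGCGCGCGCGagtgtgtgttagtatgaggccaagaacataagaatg
Alcam intron 1, chr16:52354020-52354104, score 1987: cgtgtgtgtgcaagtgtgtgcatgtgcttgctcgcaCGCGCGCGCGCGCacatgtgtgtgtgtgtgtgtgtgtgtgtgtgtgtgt
In 6 of these 7 a CA or GT repeat touched the run on at least one side, and in Alcam it followed after a few bases. The first 3 were picked for such a repeat, so this count describes the printed examples only. No such repeat touched the run in 37 TKO members (18.2%) and 381 SssI members (16.8%), against 21.4% of genomic CG runs.

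The 2 longest CG runs that lay in no peak and had no CA or GT run of 10 bp or more within 200 bp are printed for comparison. They were chosen after the values were seen.
Intergenic, chr2:174828323-174828423, no peak: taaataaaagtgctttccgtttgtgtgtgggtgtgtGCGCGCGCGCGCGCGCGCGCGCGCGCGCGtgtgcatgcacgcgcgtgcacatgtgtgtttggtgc
Intergenic, chr6:100909856-100909954, no peak: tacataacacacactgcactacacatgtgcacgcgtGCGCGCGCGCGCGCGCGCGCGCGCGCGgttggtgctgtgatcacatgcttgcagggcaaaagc
These runs of 29 and 27 bp were at the upper end of the lengths found under peaks, and the first lay in an alternating tract of 64 bp.

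The score of a peak is the authors' peak caller's 10 times −log10 of the q-value, cut to a whole number, and was compared only within a list. CG-repeat peaks of the SssI list had a median score of 133 (quartiles 73 and 332, range 13 to 2344), against 108 (quartiles 62 and 236) over all autosomal SssI peaks. Ranked from the highest score down, their median place was 41.0% of the way through the list (95% interval of the median 38.6 to 42.5%). With the SssI list cut by score into 10 equal classes, CG-repeat peaks made up 1.85% of the highest-scoring class and 0.880% of the lowest, with a fall over most of the steps between. In the TKO list the median score was 210 (quartiles 95 and 521, range 19 to 2773), against 193 (quartiles 88 and 553) over all its autosomal peaks. The median place there was 47.7% (interval 41.5 to 54.4%), and the share of CG-repeat peaks in the 10 score classes lay between 1.03 and 2.13% without a steady trend. The shift towards higher scores was thus seen in the SssI list, and in the TKO list the interval of the median place took in 50%. Peak width was not matched in these comparisons. The TKO median was 55% where the run had to lie within 100 bp of the midpoint. Narrow peaks always meet that limit and wide ones may miss it. Width went with score (Spearman 0.85 across TKO members), so the 55% cannot be set against 50%.

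CG-repeat peaks were as wide as other peaks but held more CpGs. The median width was 204 bp against 196 bp over all SssI peaks, and 240 bp against 252 bp in the TKO list. They held a median of 9 CpGs against 1 in the SssI list and 12 against 2 in the TKO list, a difference that the choice of members sets in large part. Only 1 CG run lay in 2238 of the 2265 SssI members and in 196 of the 203 TKO members. The longest run had a median of 14 bp and reached 35 bp in the SssI list, and had a median of 13 bp and reached 28 bp in the TKO list. The runs were not centred: the distance from the middle of the run to the middle of the peak had a median of 24.5 bp in the SssI list, where the longest CA or GT run lay at a median of 16 bp. The corresponding medians were 43.5 and 42 bp in the TKO list.

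CG runs under peaks were almost never alone. A CA or GT run of 12 bp or more lay in 2243 of the 2265 SssI members (99%, interval 98.5 to 99.4%) and in 200 of the 203 TKO members (98.5%, interval 95.7 to 99.5%), against 93.9% and 87.9% of all autosomal peaks of those lists. The CG run was longer than the longest CA or GT run in 61 SssI members and 8 TKO members. The tract of unbroken purine-pyrimidine alternation around the CG run, counting any such bases, had a median of 62 bp in the SssI list and 71 bp in the TKO list, so most of it was not CG. It was no longer than the CG run itself in 24 SssI members and in 0 TKO members. This tract was the only alternating tract of 12 bp or more in 1279 SssI members (56.5%) and in 66 TKO members (32.5%). In the SssI list the members with no second tract had a median score of 104, below the 108 of the whole list, and 5.08% of them (interval 4.01 to 6.43%) overlapped a TKO peak. These members were narrower than SssI members with other tracts, at a median of 191 against 232 bp, and a narrow peak has less room for another tract. In the TKO list the 66 members with no second tract had a median score of 214.5, above the 193 of that whole list.

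The 3 TKO members without a CA or GT run of 12 bp were examined after their values were seen. They lay in intron 1 of Cmip, which encodes a c-Maf-inducing protein (score 244, CG run of 14 bp), in the 5′ untranslated exon 1 of Cdyl2, a chromodomain gene (score 222, 15 bp), and in intron 1 of the potassium channel gene Kcnk3, in a promoter interval (score 161, 13 bp). The Cmip site reads as follows.
Cmip intron 1, chr8:117294707-117294792, score 244: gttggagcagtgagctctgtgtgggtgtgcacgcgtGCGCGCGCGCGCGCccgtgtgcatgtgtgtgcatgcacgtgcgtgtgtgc
Short alternating stretches surrounded the run in place of a long CA repeat, and the peak held 4 alternating tracts. Each of the 3 was also an SssI peak, with scores of 1283 at Cmip, 1457 at Cdyl2 and 1267 at Kcnk3, at 3.93, 2.63 and 4.03% of the way down that list. The 22 SssI members without such a run had a median score of 101.5 and ranged from 24 to 1457.

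The genome held 4022 autosomal CG runs of 12 bp or more, of which 2318 (57.6%, interval 56.1 to 59.2%) overlapped an SssI peak and 216 (5.37%, interval 4.72 to 6.11%) a TKO peak. Over all 1551469 autosomal alternating tracts of 12 bp or more, most of which are short, 26.9% overlapped an SssI peak and 4.84% a TKO peak. All 216 runs in TKO peaks also lay in SssI peaks, 2102 lay in SssI peaks only, and 1704 (42.4%) lay in no peak. CA or GT runs of 12 bp or more overlapped SssI peaks at a similar overall share of 56.1% but TKO peaks at 10.7%, above the share of the CG runs. These shares count runs, and CA or GT runs often shared a peak. The 48877 CA or GT runs in TKO peaks lay in 12842 peaks, and the 216 CG runs in 208. The higher share therefore does not give how often separate CA repeats were captured.

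Whether a CG run lay under a peak went with the length of the CA or GT repeat beside it. Of the 296 CG runs with no CA or GT run of 10 bp or more within 200 bp, 7 overlapped an SssI peak (2.36%, interval 1.15 to 4.80%) and 0 a TKO peak, for which the Wilson interval reaches 1.28% and 3 counts of the total would be 1.01%. With a longest CA or GT run of 10 to 15 bp the SssI share was 20.6% (54 of 262), with 16 to 23 bp 38.2% (218 of 570), and with 24 to 35 bp 56.8% (757 of 1333). It was 81.8% (1247 of 1525, interval 79.8 to 83.6%) with 36 to 59 bp and 97.2% (35 of 36, interval 85.8 to 99.5%) with 60 bp or more. The intervals of neighbouring classes did not overlap. The CG runs themselves had a median length of 13 or 14 bp in every one of these classes. In the TKO list the shares were 2.29%, 4.74%, 5.03%, 7.21% and 16.7% over the same 5 classes, and the intervals of neighbouring classes overlapped. The whole alternating tract around the CG run lengthened over the same 6 classes, with medians of 16, 35.5, 44, 54, 65 and 87 bp, so the CA repeat and the tract it belongs to cannot be told apart.

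**Figure D1:**
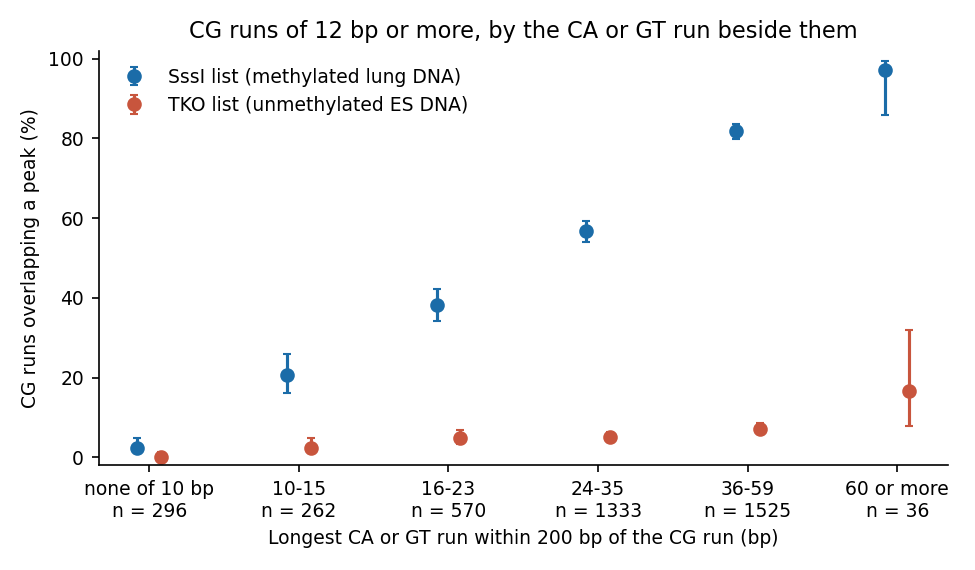
Share of autosomal CG runs of 12 bp or more that overlap a peak (vertical axis, %), by the longest CA or GT run within 200 bp (horizontal axis, bp, with the number of CG runs), for the SssI list (blue) and the TKO list (red); bars are Wilson 95% intervals. The SssI share goes from 2.36% to 97.2% and the TKO share from 0 to 16.7%.

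The CG runs with no CA or GT repeat nearby also differed from the others in position and composition. Of them, 54.7% lay in promoters (3000 bp upstream of a transcript start) against 15.6% of all CG runs, and their surroundings had a median GC content of 64.4%, against 46.1 to 48.7% in the classes with a CA or GT run. Outside promoters, 5 of 134 (3.73%, interval 1.60 to 8.44%) overlapped an SssI peak, against 2037 of 3260 (62.5%) of those with a CA or GT run of 10 bp or more nearby. In promoters the shares were 2 of 162 (1.23%) and 274 of 466 (58.8%). Where GC content was 55% or less they were 4 of 100 (4.00%, interval 1.57 to 9.84%) and 2152 of 3492 (61.6%), so the difference was as large within each of these parts.

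The share of CG runs under SssI peaks hardly moved with the length of the run itself. CG runs of 12 to 13 bp overlapped an SssI peak in 58.6% of 1718 cases, those of 14 to 15 bp in 57.5% of 982, those of 16 to 19 bp in 57.8% of 872 and those of 20 to 29 bp in 53.7% of 441 (interval 49.1 to 58.3%), with overlapping intervals throughout. In the TKO list the share was 6.46% (interval 5.39 to 7.72%) for 12 to 13 bp and 3.40% (interval 2.07 to 5.54%) for 20 to 29 bp, with 5.50% and 4.13% between them. None of the 9 runs of 30 bp or more lay in a TKO peak (interval 0 to 29.9%) and 5 lay in an SssI peak. CA or GT runs of the same lengths overlapped SssI peaks less often than CG runs up to 19 bp, at 46.6 to 47.8%, and overlapped TKO peaks more often, at 14.6 to 14.8%. The length of the alternating tract around the runs was not matched here. At matched tract lengths under 60 bp, given below, tracts with a CG run had no higher SssI share than tracts without a CpG. From 60 bp up they had a higher one. Runs that shared a peak were each counted. In the TKO list the 13276 CA or GT runs of 12 to 13 bp lay in 6341 peaks, and the 111 CG runs in 107. Just outside the limit of 12 bp, the 1572 SssI peaks with a longest CG run of 10 or 11 bp had a median score of 145 and the 490 with exactly 12 bp a median of 120, and in the TKO list the medians were 257 (158 peaks) and 163.5 (38 peaks).

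**Figure D2:**
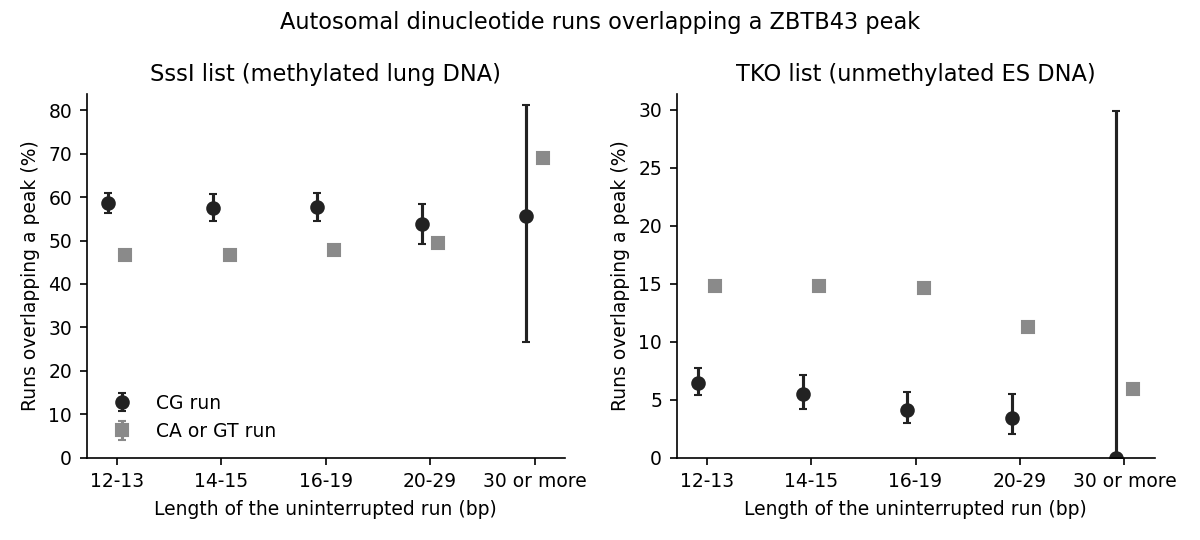
Share of autosomal CG runs (black circles) and CA or GT runs (grey squares) that overlap a peak (vertical axis, %), by the length of the uninterrupted run (horizontal axis, bp), in the SssI list (left) and the TKO list (right, other scale); bars are Wilson 95% intervals. The SssI share of CG runs stays between 53.7% and 58.6%, and the TKO share of CG runs lies below that of CA or GT runs up to 29 bp. Each run is counted, also where several share a peak, and the length of the surrounding alternating tract is not matched.

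Across CG-repeat peaks of the SssI list the Spearman correlation of score with run length was −0.02 (n = 2265), with the length of the whole tract 0.35 and with peak width 0.83. These were 0.08, 0.24 and 0.85 in the TKO list (n = 203). The peaks of a list share its libraries, so these values are descriptions.

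The CG runs sat in the repeat with an order. Read so that the neighbouring repeat is CA, the CG run preceded the CA repeat, as (CG)n(CA)n, in 2415 of the 4022 genomic runs (60%) and followed it, as (CA)n(CG)n, in 430 (10.7%). CA repeats flanked the run on both sides in 259 (6.44%), and in 859 (21.4%) neither side began with 6 bases of a CA or GT repeat. Runs with CA repeats on both sides lay under peaks most often, at 80.3% (interval 75 to 84.7%) for the SssI list and 15.8% (interval 11.9 to 20.8%) for the TKO list. The shares were 68.4% (interval 63.8 to 72.6%) and 5.81% for (CA)n(CG)n, 57.1% (interval 55.2 to 59.1%) and 4.43% for (CG)n(CA)n, and 46.4% (interval 43.1 to 49.8%) and 4.77% for neither side.

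Median tract lengths ran in the same order, from 66 bp with CA repeats on both sides through 62 and 55 bp to 34 bp with neither. Within tracts of 60 to 99 bp the SssI shares were closer, at 92.2% (interval 86.2 to 95.7%) for both sides, 78.9% for (CA)n(CG)n, 79.4% for (CG)n(CA)n and 83.7% (interval 78.2 to 88.1%) for neither side. The difference between the orders (CA)n(CG)n and (CG)n(CA)n was thus not seen at that length, while at 36 to 59 bp it was 58.5% (interval 50.7 to 65.9%) against 46.1% (interval 43.4 to 48.8%). The median score of SssI members was 269 with CA repeats on both sides (199 peaks), 150 with (CA)n(CG)n (292 peaks), 119 with (CG)n(CA)n (1359 peaks) and 150 with neither side (381 peaks). These medians were 546 (35 peaks), 236 (24 peaks), 213 (105 peaks) and 176 (37 peaks) in the TKO list. Among the arrangements given, scores were highest with CA repeats on both sides in both lists, and otherwise did not keep the order of the shares in the SssI list. Runs between a CA and a GT repeat were rare and are left out of this ranking. Either order of these held 1 TKO member, with scores of 1399 and 141.

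Alternating tracts that held a CG run were set beside tracts of the same length that held CpGs but no CG run of 12 bp, and beside tracts without a CpG. At 60 to 99 bp, tracts with a CG run overlapped an SssI peak in 81.1% of 1451 cases (interval 79.0 to 83.0%), tracts with scattered CpGs in 81.5% (interval 80.8 to 82.1%) and tracts without a CpG in 44.7%. At this length the tracts with a CpG had the higher share, whether or not the CpGs stood in a CG run. This was not so for shorter tracts: at 12 to 15, 16 to 23 and 24 to 35 bp, tracts with scattered CpGs overlapped an SssI peak in 10.1%, 23% and 34.8% of cases and tracts without a CpG in 16.1%, 27.4% and 35.8%, and tracts with a CG run in 15.5%, 26.7% and 29.2%. The TKO list differed: tracts with a CG run overlapped a peak in 5.79% (interval 4.70 to 7.11%), close to the 5.06% of tracts without a CpG, and tracts with scattered CpGs in 13.9% (interval 13.4 to 14.5%). The tracts with scattered CpGs held a median of 2 CpGs and those with a CG run 9, at the same median length of 69 bp.

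At 100 bp or more the TKO shares came together, at 48.4% of 128 tracts with a CG run (interval 40.0 to 57.0%) and 45.7% of 2672 tracts with scattered CpGs, against 16.3% without a CpG. The SssI shares there were 90.6%, 71.8% and 35.3%. At 36 to 59 bp tracts with a CG run had the lowest share in both lists, with 48.7% against 62.0% and 55.7% in the SssI list and 3.20% against 6.37% and 4.66% in the TKO list.

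**Figure D3:**
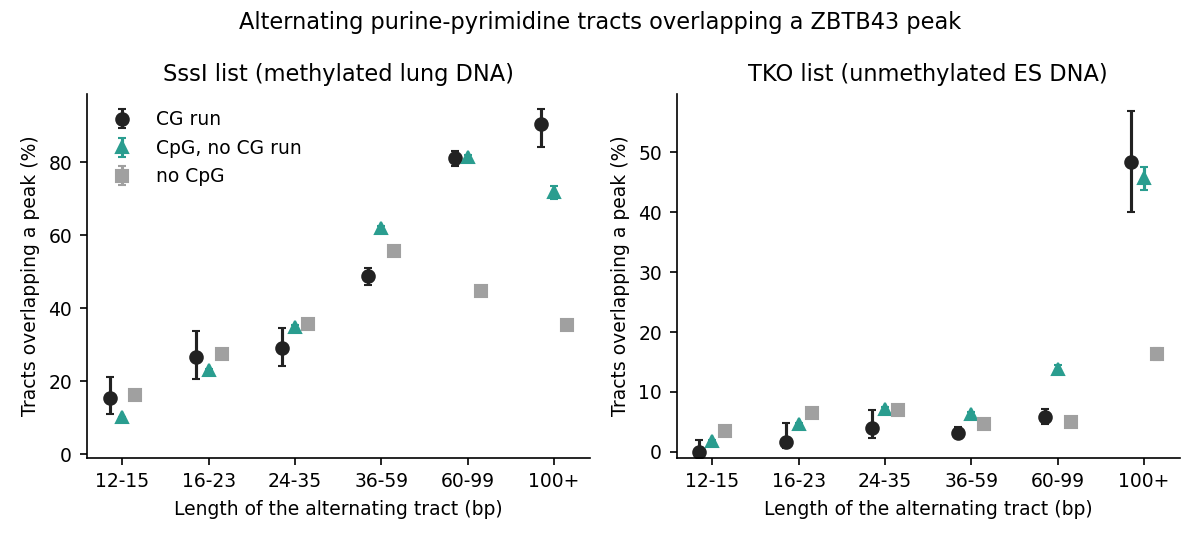
Share of autosomal alternating purine-pyrimidine tracts that overlap a peak (vertical axis, %), by tract length (horizontal axis, bp), for tracts with a CG run (black circles), with CpGs but no CG run (green triangles) and without a CpG (grey squares), in the SssI list (left) and the TKO list (right, other scale); bars are Wilson 95% intervals. At 60 to 99 bp the tracts with a CG run match those with scattered CpGs in the SssI list (81.1% and 81.5%) and lie below them in the TKO list (5.79% and 13.9%).

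Neighbouring tracts moved with these shares. Of the tracts of 60 to 99 bp with a CG run, 62.5% had no other alternating tract within 200 bp, against 51.1% of those with scattered CpGs. Among those with no neighbour the TKO shares were 2.65% (24 of 907, interval 1.78 to 3.91%) and 6.51% (504 of 7747, interval 5.98 to 7.08%), and with 1 or 2 neighbours 6.31% (interval 4.4 to 8.96%) and 14.8% (interval 13.9 to 15.8%). With 3 or more neighbours they were 32.0% (32 of 100, interval 23.7 to 41.7%) and 36.8% (interval 34.8 to 38.8%), and there the intervals overlapped. The gap was therefore as large in proportion among tracts standing alone or with few neighbours. In the SssI list the shares of isolated tracts were 77.3% with a CG run and 82.9% with scattered CpGs.

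CA or GT runs were compared by whether a CG run lay within 200 bp. Each run was counted, also where several shared a peak, so the intervals are too narrow. The length of the whole tract and the number of neighbouring tracts were not matched. For CA or GT runs of 36 to 59 bp the SssI share was 82.9% (1299 of 1567, interval 81.0 to 84.7%) with a CG run nearby and 74.2% (interval 74.0 to 74.4%) without one. The TKO shares were 8.30% (interval 7.03 to 9.77%) and 5.37% (interval 5.25 to 5.49%). For runs of 24 to 35 bp the SssI shares were 61.1% and 50.8%, and the TKO shares of 9.22% (interval 7.86 to 10.8%) and 8.66% had overlapping intervals. For runs of 12 to 23 bp a CG run nearby went with a higher share in both lists, at 63.6% (interval 61.2 to 65.8%) against 47.2% in the SssI list and 22.2% (interval 20.3 to 24.2%) against 14.4% (interval 14.3 to 14.6%) in the TKO list. For the 38 runs of 60 bp or more with a CG run nearby the SssI share was 97.4% (interval 86.5 to 99.5%) against 95.7%, and the intervals overlapped. The TKO shares there were 15.8% (interval 7.44 to 30.4%) and 6.92% (interval 6.04 to 7.91%), which also overlapped.

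The lists were compared by their overlap at these peaks. All 203 TKO members overlapped an SssI peak by 1 bp or more (interval 98.1 to 100%), and 99.4% of all autosomal TKO peaks did, so this share was near the background. The SssI peak over each of the 203 also held a CG run. Of the 2265 SssI members, 222 (9.80%, interval 8.64 to 11.1%) overlapped a TKO peak, against 8.47% of all autosomal SssI peaks. With a minimum run of 16 bp the share was 7.38%, and with the run within 100 bp of the midpoint 7.70%. Both lay below that of all peaks but are given without intervals, so a difference is not shown. The midpoint limit can leave out only wider peaks. Shared members were wide, with a median of 412 bp against 197 bp for members not shared, so 7.70% cannot be set against 8.47%. In 201 of these 222 the TKO peak held a CG run as well. The SssI peak was the wider of the pair in 196 of the 203, with a median of 399 bp against 240 bp, and 173 of the 203 (85.2%) had an SssI peak in the highest of the 10 score classes, against 82.7% of all shared TKO peaks.

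Most of the shared SssI members had high scores. In the highest of the 10 score classes, 189 of 313 members overlapped a TKO peak (60.4%, interval 54.9 to 65.6%), against 70.0% of all peaks of that class (interval 69.3 to 70.7%), and in the next class 23 of 282 did (8.16%, interval 5.50 to 11.9%), against 10.7%. Members were thus shared less often than all peaks in the highest class, where most of the shared ones lay. Of the 1670 members in the other 8 classes, 10 overlapped a TKO peak. By class, these shares lay between 0 and 2.08% of members and between 0.0886 and 2.05% of all peaks. The intervals of members and all peaks overlapped in each of the 8 classes, so no lower share of members is shown there. The share of shared members fell with run length, from 11.3% (interval 9.50 to 13.5%) of those with a run of 12 to 13 bp, through 10.3% and 7.93%, to 6.36% (interval 3.89 to 10.2%) of those with 20 to 29 bp, and these intervals overlapped. None of the 4 SssI members with a run of 30 bp or more was shared (interval 0 to 49.0%), against 8.47% of all autosomal SssI peaks, so no difference is shown.

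CG-repeat peaks were shared less often than other SssI peaks with as many CpGs. With 5 to 7 CpGs, 13 of 530 members overlapped a TKO peak (2.45%, interval 1.44 to 4.15%), against 21.3% of 11857 other peaks. With 8 to 11 CpGs the shares were 6.01% (65 of 1081) and 31.3%, and with 12 or more 22.0% (144 of 654, interval 19 to 25.4%) and 54.7%. Their median scores were lower too, at 89 against 234, 129 against 470.5 and 277 against 1119. Members were narrower in each class, with medians of 184.5 against 238 bp, 200 against 282 bp and 238.5 against 422 bp.

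Within 1 range of widths the differences were smaller but remained for wide peaks. Among peaks of 300 bp or more, 26.3% (10 of 38, interval 15 to 42.0%), 37.9% (44 of 116, interval 29.6 to 47.0%) and 57.0% (126 of 221, interval 50.4 to 63.4%) of members overlapped a TKO peak in the 3 CpG classes, against 55.5%, 61.6% and 73.8% of other peaks. Members were still somewhat narrower there, at 360, 346 and 428 bp against 434, 424 and 509 bp. Among peaks under 200 bp the shares lay between 0 and 1.59% with overlapping intervals. From 200 bp up to but under 300 bp they were 1.81% (interval 0.616 to 5.18%), 4.43% (interval 2.85 to 6.81%) and 6.15% (interval 3.76 to 9.89%) of members against 7.35%, 8.50% and 10.5% (interval 7.86 to 13.9%), and only the last pair of intervals overlapped. In the TKO list, over all widths, members also had lower median scores than other peaks with as many CpGs. These were 162 against 253.5, 111.5 against 311 and 295.5 against 760, with widths of 229 against 263 bp, 204.5 against 260 bp and 265 against 363 bp. Within ranges of width this did not hold throughout. Under 200 bp the median scores were 91 against 86, 71 against 90 and 98 against 95. From 200 bp up to but under 300 bp they were 227.5 against 222, 163.5 against 271 and 234 against 327. At 300 bp or more they were 382 against 950, 752 against 935 and 1118 against 1248.

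**Figure D4:**
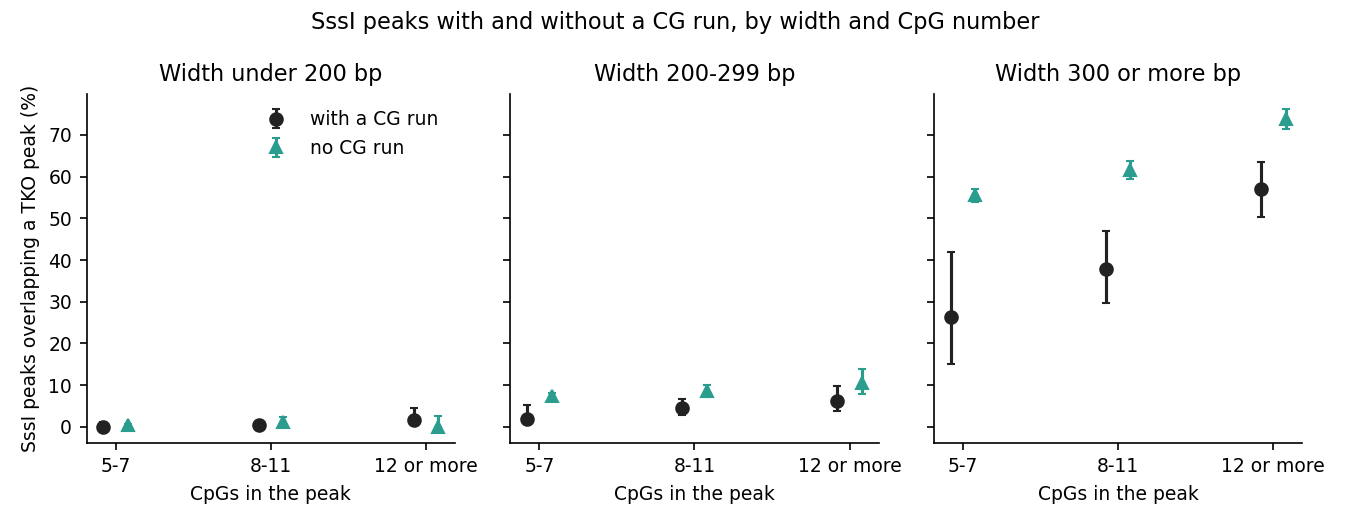
Share of autosomal SssI peaks that overlap a TKO peak (vertical axis, %), by the number of CpGs in the peak (horizontal axis) and peak width (panels), for peaks with a CG run of 12 bp or more (black circles) and without one (green triangles); bars are Wilson 95% intervals. In peaks of 300 bp or more the shares with a CG run (26.3%, 37.9% and 57.0%) lie below those without (55.5%, 61.6% and 73.8%).

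The scores of the 203 pairs went together loosely, with a Spearman correlation of 0.40 between the TKO score and the score of the SssI peak over it, given as a description. The pairs departed from each other in both directions. The intergenic TKO peak on chromosome 17 with a CG run of 25 bp had a score of 468, in the upper 28.4% of the TKO list, over an SssI peak with a score of 42, at 88.6% of its list. At the other end, the SssI peak in intron 7 of Cry1, a repressor of the circadian clock, which also lay in a promoter interval, had a score of 2068 at place 424 of the list, and the TKO peak over it a score of 96, at 72.0% of its list.

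**Figure D5:**
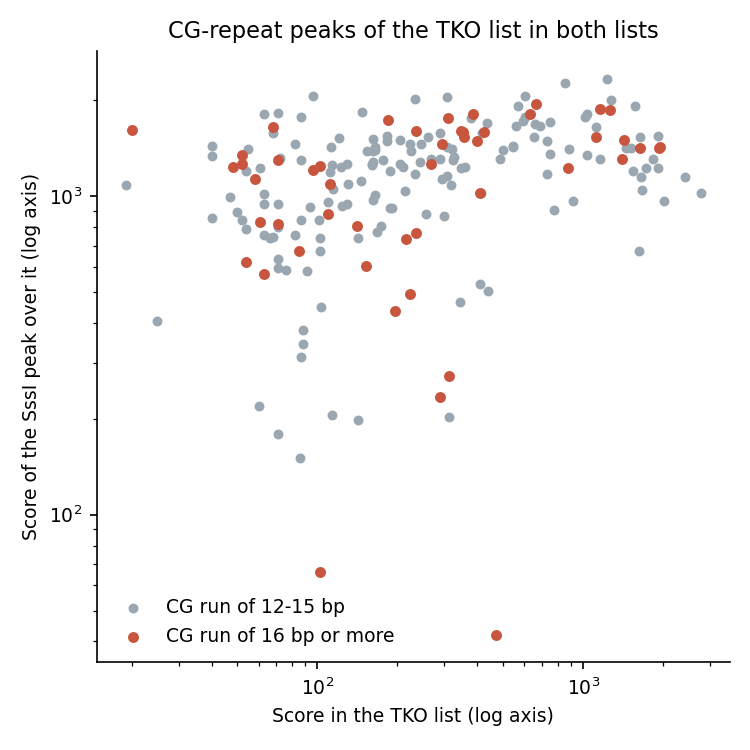
Score in the TKO list (horizontal axis, log) against the score of the SssI peak over it (vertical axis, log) for the 203 CG-repeat peaks of the TKO list, with those holding a CG run of 16 bp or more in red. The SssI scores have a median of 1250 (quartiles 879.5 and 1495), the TKO scores range from 19 to 2773, and 10 pairs have an SssI score under 300.

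Of the 5 highest-scoring TKO members, 4 lay in introns, and the one in Gys1 also lay in a promoter interval. The peak with the highest score, 2773, was at chr7:4696169-4696765 in intron 4 of Brsk1, a brain serine/threonine kinase gene, where the CG run was 15 bp and 14 alternating tracts lay in 597 bp. The second, with a score of 2405, lay in intron 5 of Gys1, the muscle glycogen synthase gene, with a run of 12 bp. The third, an intergenic peak on chromosome 15 (score 2005), had a single alternating tract of 540 bp with 85 CpGs in the peak. The peaks in intron 3 of Mxi1, a repressor that pairs with MAX (score 1947), and in intron 3 of Rab3c, a vesicle GTPase gene (score 1934), had runs of 17 bp. Their SssI peaks had scores of 1022, 1148, 969, 1427 and 1418, between 2.81 and 6.69% of the way down that list. None of the 5 was among the 5 highest-scoring members of the SssI list.

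The TKO members with the longest CG runs had runs of 23 to 28 bp and scores of 290 to 1399. The run of 28 bp was intergenic on chromosome 6 (score 1399), that of 26 bp lay in intron 12 of Nars, an asparaginyl-tRNA synthetase gene, in a promoter interval (score 293), and that of 23 bp in intron 3 of Srgap1, a GTPase-activating protein gene of the Slit-Robo pathway (score 1114). Where the tract of the CG run was the only alternating tract of the peak, the highest TKO scores were 2005, 1911 and 1904, with tracts of 540, 263 and 319 bp. The last of these lay in intron 11 of the principal transcript of Tnnt1, slow skeletal troponin T, and within an exon of another of its transcripts.

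Exons of any transcript held the midpoints of 66 SssI members (2.91%, interval 2.30 to 3.69%), against 1.80% (interval 1.74 to 1.87%) of all autosomal SssI peaks. In the TKO list they held 8 members (3.94%, interval 2.01 to 7.58%), against 1.34% (interval 1.17 to 1.54%) of all its autosomal peaks. The 5 TKO members of this kind with the highest scores were in Tnnt1 (1904), in exon 2 of the long non-coding Gm48488 (1160, in a promoter interval), in the 3′ untranslated part of Gsk3b, a glycogen synthase kinase gene (604), in the 5′ untranslated exon of Cdyl2 (222) and in a 5′ untranslated exon of a transcript of Sema3a, which encodes an axon guidance factor (216). The SssI scores at these sites were 1224, 1313, 1773, 1457 and 733.

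The SssI members with the highest scores, 2344 to 2068, all overlapped a TKO peak. They lay in intron 3 of Prima1, the membrane anchor of acetylcholinesterase (score 2344, TKO score 1229), between genes on chromosome 1 (2270 and 852), in Cry1, between genes on chromosome 13 (2068 and 603) and in intron 1 of the kinase gene Map3k1 (2068 and 76). At Map3k1 the TKO peak itself held no CG run of 12 bp. The longest runs, 29 bp or more, lay in 9 members with scores of 42 to 621, and 5 of the 9 had the same run length of 29 bp. None of the 9 overlapped a TKO peak. Of all autosomal SssI peaks only 8.47% did, so this count does not set the longest runs apart. The run of 30 bp in intron 1 of Ptprg, a receptor tyrosine phosphatase gene, had a score of 73, and the run of 35 bp a score of 95. The 9 peaks were spread from 11.1 to 89.5% of the way down the SssI list, with a median of 54.7%.

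SssI members whose tract stood alone reached scores of 2014 in intron 2 of Cmtm2b (in a promoter interval), 1921 in intron 8 of Cep97, a centrosomal protein gene, and 1916 between genes on chromosome 1, with tracts of 171, 180 and 168 bp and CA repeats on both sides of a run of 13 bp. Each overlapped a TKO peak, with scores of 1274, 567 and 1566. The highest-scoring SssI members without a TKO peak were in intron 1 of Alcam, a cell adhesion molecule gene (1987), between genes on chromosome 12 (1922) and in intron 1 of Srcin1, an inhibitor of Src kinase, in a promoter interval (1909). The Srcin1 peak held 68 CpGs at a GC content of 78.3% and its CG run lay in a tract of 15 bp.

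Most CG-repeat peaks lay in introns or between genes, as most peaks of the lists did, and promoters and exons took a somewhat larger share than in the SssI list as a whole. In the SssI list 46.4% of their midpoints were in introns, 39.8% between genes and 11.7% (interval 10.5 to 13.1%) in promoters, against 44.0%, 45.7% and 8.82% of all autosomal SssI peaks. In the TKO list the shares were 42.9%, 41.9% and 12.3% (interval 8.48 to 17.5%), against 45.6%, 44.5% and 8.78%. Of the genomic CG runs 15.6% lay in promoters, and 43.9% of those (interval 40.1 to 47.9%) overlapped an SssI peak, against 59.8% of intronic and 61.5% of intergenic runs. Outside promoter intervals, no member of either list had its midpoint in a coding exon. Of all autosomal peaks, 43 SssI peaks (0.0254%) and 3 TKO peaks (0.0206%) did, so few or no members would be found there at the same shares. Coding exons inside promoter intervals were counted as promoters. Midpoints lay in 957 different protein-coding genes for the SssI list and 100 for the TKO list.

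All 19 autosomes held members. Their share of the SssI peaks of a chromosome lay between 1.05% on chromosome 8 and 1.60% on chromosome 11, and their share of the TKO peaks between 0.605% on chromosome 14 (4 members) and 2.09% on chromosome 4 (19 members). The share of a chromosome's CG runs under SssI peaks lay between 48.5 and 64.2%.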

How the data were processed

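The authors captured fragmented DNA with MBP-ZBTB43 or MBP, sequenced the libraries, aligned paired-end reads to mm10 with bwa mem 0.7.17, combined duplicates and called peaks with MACS2 2.2.7.1 at default settings with MBP as control. The deposited lists give for each peak a score, 10 times −log10 q, with no counts, summits or fold enrichment. Numbers in the peak names exceed the number of rows in each list, which shows that peaks had been left out before deposit. Of 12 libraries, 8 made these lists and the 4 sperm libraries were not analysed here.

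Sequences were read from GRCm38.p6 and places from GENCODE vM21 at the peak midpoint, promoters first. Runs and tracts were found by pattern search, and of a run crossing the edge of a peak only the part inside was measured. Alternating tracts held at least 12 bp and some C or G. A CA or GT repeat touched a run when its next 6 bases within the tract were CA or GT repeat. Overlaps needed 1 bp and were checked with bedtools 2.31.1. Searches were tested on simulated data. Python 3.11.15, pandas 2.3.3 and scipy 1.17.1 were used. Mapping quality of reads in repeats was not assessed.

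The members, classes and lists were chosen with earlier results of these data known. Named peaks were the 5 with the highest score and the 5 with the longest run in each list, the 3 highest-scoring whose tract stood alone, the 3 highest-scoring SssI members overlapping no TKO peak (no TKO member was without an SssI peak), and 5 exonic TKO members. Each list pools its libraries, so there was no test across samples. The methods state a minimum depth for these libraries, but without counts in the lists no precision could be derived from it. Alternatives were other minimum runs, stricter scores and overlaps, a central window, shorter promoters, X and Y, and a shortened SssI list.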

Additional observations from a re-analysis of the deposited data

How the results depend on the processing

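Many values depended on where the limits were set, and 3 comparisons changed sides. Members were a larger share of the TKO than of the SssI list at 12 bp, with overlapping intervals, and the smaller at 16 and 20 bp. Shared SssI members lay above the 8.47% of all peaks at 12 bp. They lay below it at 16 and 20 bp and with the run near the midpoint. The median place of TKO members, whose interval took in 50%, crossed 50% with the run near the midpoint. The alternative values carry no intervals, so differences in the other direction are not shown. The limit near the midpoint can leave out only wider peaks, and width went with score. With a minimum run of 10, 16 or 20 bp the SssI list held 3837, 732 or 240 members (2.27, 0.432 or 0.142% of its peaks) and the TKO list 361, 49 or 14 (2.48, 0.337 or 0.0962%). SssI members overlapping a TKO peak were 7.38% at 16 bp and 6.25% at 20 bp, 8.26% where 50% of the member had to be covered and 7.70% where the run lay within 100 bp of the midpoint. The median place of SssI members was 43.3% at 16 bp, 48.3% at 20 bp and 42.6% with the run near the midpoint, and of TKO members 39.1% at 20 bp and 55% with the run near the midpoint. Genomic CG runs overlapped SssI peaks in 53.6% at 10 bp, 53.8% at 20 bp and 50.5% with scores of at least 50, and TKO peaks in 3.86% at 16 bp and 3.33% at 20 bp. Members were 1.42% of SssI peaks with scores of at least 50 and 1.16% of TKO peaks with the run near the midpoint. An SssI list reduced to as many top-scoring peaks as the TKO list overlapped 80.3% of TKO members, against 77.1% of all autosomal TKO peaks. The tract of the run stood alone in 45.4% of SssI and 26.1% of TKO members when other tracts counted from 10 bp, and in 67.8% of SssI members from 16 bp. Promoters of 1000 bp held 5.83% of SssI and 5.42% of TKO members. The other 28 of 62 alternatives stayed within the counting interval of the main value, or within 1.5 times it for counts. Among them, the share of CG runs without a nearby CA or GT run in SssI peaks was 2.92% within 100 bp and 2.46% within 500 bp, a choice made after seeing the data. The cause of these shifts was not tested.

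No paired analysis was possible because both peak lists used here pool their libraries, and leaving out a replicate was impossible for the same reason. Signal of single libraries was not analysed here. The lists hold no counts, so runs in no peak are runs not detected at the depth of these libraries.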
